A study of Homo sapiens with 4 samples.

Results

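The genes examined, 10 in all, belong to the 9p21 locus and to the G1 phase of the cell cycle, and were chosen by name from the 58884 genes of the deposited table: CDKN2A, CDKN2B and MTAP, which lie together at 9p21, with CDKN1B, CCND1, CCND3, CCNE1, CDK4, CDK6 and RB1. All 10 were found and all 10 passed the filter on low values. The question put to the locus was whether any of its genes was absent in a line. RNA came from the cell lines TPC-1 and B-CPAP, both established from human papillary thyroid carcinomas and kept in T25 flasks at 37 °C or at 40 °C, with 1 library for each line and temperature. No genetic change or agent other than temperature is named in the labels, which state the exposure in conflicting ways, as 15 min, 20 min and 24 h. Values are TPM, a level per gene length in which each library sums to the same total, so levels can be compared between genes. As TPM is a share of each library's RNA, fewer cells expressing a gene and less RNA of it per cell cannot be told apart.

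The 9p21 locus encodes brakes on the G1 phase. CDKN2A gives p16INK4a and, from a separate upstream first exon, p14ARF, and CDKN2B gives p15INK4b. The INK4 proteins bind CDK4 and CDK6 and keep them from pairing with D-type cyclins, whereas ARF holds back the ubiquitin ligase MDM2. Cyclin D with CDK4 or CDK6 begins to phosphorylate the retinoblastoma protein RB1, cyclin E with CDK2 completes it, and E2F factors are then free to switch on genes of DNA replication. CDKN1B encodes p27, an inhibitor that binds cyclin E-CDK2. MTAP, a neighbour of CDKN2A, encodes an enzyme of methionine salvage. In many tumours the locus is lost as 1 block, with MTAP often inside the deleted stretch, and in papillary thyroid carcinoma cyclin D1 is often abundant.

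Promoter sequence is shown for the INK4 genes because CDKN2A has a start for each of its products, which the table adds into 1 value, and for CCNE1 because it had the largest difference between the lines among the 10 genes. The sequences are RefSeq's on GRCh38.p14, the 250 bases before each annotated start, written 5′ to 3′ on the gene's strand. Capitals mark GC boxes, GGGCGG or CCGCCC on the strand shown, the motif class to which SP1-type factors bind.
CDKN2A, upstream start (chr9:21995325-21995574, minus strand): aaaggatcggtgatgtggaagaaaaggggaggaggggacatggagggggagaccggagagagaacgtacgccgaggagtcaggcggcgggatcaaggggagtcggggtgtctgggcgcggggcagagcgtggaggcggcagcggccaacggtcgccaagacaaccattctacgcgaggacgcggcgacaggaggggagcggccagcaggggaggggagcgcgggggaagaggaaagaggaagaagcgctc
CDKN2A, downstream start (chr9:21974858-21975107, minus strand): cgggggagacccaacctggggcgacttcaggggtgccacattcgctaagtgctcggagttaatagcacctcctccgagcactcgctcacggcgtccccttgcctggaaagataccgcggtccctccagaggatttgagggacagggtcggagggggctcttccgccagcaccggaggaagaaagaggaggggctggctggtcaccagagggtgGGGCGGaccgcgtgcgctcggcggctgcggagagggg
CDKN2B (chr9:22009306-22009555, minus strand): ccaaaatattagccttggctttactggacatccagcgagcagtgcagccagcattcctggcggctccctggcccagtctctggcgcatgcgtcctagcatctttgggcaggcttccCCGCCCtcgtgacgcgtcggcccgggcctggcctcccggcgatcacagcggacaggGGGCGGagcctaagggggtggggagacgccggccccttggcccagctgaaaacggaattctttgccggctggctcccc
CCNE1 (chr19:29811741-29811990, plus strand): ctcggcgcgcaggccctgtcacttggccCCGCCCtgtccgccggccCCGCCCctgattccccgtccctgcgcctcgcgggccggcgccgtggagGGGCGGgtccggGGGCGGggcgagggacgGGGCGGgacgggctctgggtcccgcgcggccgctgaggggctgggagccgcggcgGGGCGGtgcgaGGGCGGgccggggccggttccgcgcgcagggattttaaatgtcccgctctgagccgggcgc
The upstream start of CDKN2A had 0 GC boxes, the downstream start 1, CDKN2B 2 and CCNE1 7. Of all 35116 windows of this length, 42.6% held at least 1 GC box. RefSeq entries were matched by symbol for 9 of the 10 genes, 13 in all. The RB1 entry (chr13:48476200-48476449) lies inside the gene, far from its 5′ end at 48303726 in GENCODE, and was left out. It held 0 GC boxes. The windows of CDKN1B, CDK4 and CCND3 and the downstream ones of CDK6 and CDKN2A also lie inside their genes by GENCODE coordinates, and were kept. Of the other 12 entries 9 held a GC box, and none held the letters TTTNNCGC or GCGNNAAA, an E2F-type motif found in 5.92% of all windows. A match of letters is a description of the sequence and not a bound site.

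The labelled tissue was checked against thyroid markers. PAX8, a transcription factor of thyroid follicular cells, was at 284 and 267 TPM in the TPC-1 libraries and at 112 and 98.9 TPM in those of B-CPAP. NKX2-1, another such factor, was listed at 0 in both TPC-1 libraries and stood at 8.60 and 7.90 TPM in B-CPAP. Of 9 thyroid markers 3 reached 1 TPM in any library. Thyroglobulin (TG) stayed under 1 TPM, TSHR at or near 0, and SLC5A5 was listed at 0 in all 4 libraries, so these markers of differentiated thyroid function were absent or nearly so in both lines. Of the epithelial markers, the keratins KRT8 (168 and 139 TPM in the TPC-1 libraries, 569.8 and 431 TPM in those of B-CPAP) and KRT18 (183 to 283 TPM) were high in both lines. KRT7 was at 4.84 and 5.15 TPM in the TPC-1 libraries against 754 and 589 TPM in those of B-CPAP. KRT19 was at 1.42 TPM or less, EPCAM stayed under 2 TPM and CDH1 at or near 0. Blood cell markers summed to 0.434 to 1.37 TPM, with PTPRC, CD3E and HBB listed at 0, and endothelial markers to 0.989 to 1.64 TPM. Fibroblast markers summed to 9.42 and 9.91 TPM in TPC-1 and to 416 and 377 TPM in B-CPAP, and limma called 6 of the 7 tested markers higher in B-CPAP. THY1 stood at 0.251 and 0.321 TPM against 362 and 300.8 TPM. COL1A2, COL3A1, LUM and POSTN were at or near 0 in TPC-1 and at 6.97 to 29.6 TPM in B-CPAP. COL1A1 was at 2.95 and 2.82 TPM against 10.4 and 10.3 TPM, and DCN and PDGFRA stayed near 0 in both lines. PDGFRB, the tested marker that was not called, went the other way, at 6.19 and 6.72 TPM against 4.15 and 4.65 TPM. The list's part in the differences between the lines below was not tested. Estimated depth was 20704732 to 24466647 reads a library, and mitochondrially encoded genes took 16.8% and 19.9% of TPM in TPC-1 and 22% and 23.9% in B-CPAP, at 37 and 40 °C in turn.

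No gene of the 9p21 trio was absent in either line. CDKN2A (ENSG00000147889, GRCh38 chr9:21967753-21995301, minus strand) stood at 121 TPM in TPC-1 at 37 °C, 109.6 TPM at 40 °C, 162 TPM in B-CPAP at 37 °C and 123 TPM at 40 °C. Both B-CPAP libraries were above both TPC-1 libraries, by a narrow margin at 40 °C. These levels rested on 2741 to 5224 estimated reads. The files give 1 value for the gene, so p16INK4a and p14ARF transcripts are not separated, and 7.88% of its exon length is shared with CDKN2B-AS1 on the other strand, which these libraries, made without strand, cannot tell apart. CDKN2B-AS1, the antisense RNA known as ANRIL, was at 0.437 and 0.492 TPM in the TPC-1 libraries and at 1.10 and 1.33 TPM in those of B-CPAP, far below CDKN2A per length.

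CDKN2B (ENSG00000147883, chr9:22002903-22009363, minus strand) was much lower than its neighbour, at 5.42 and 6.58 TPM in the TPC-1 libraries and 3.05 and 6.04 TPM in those of B-CPAP, at 37 and 40 °C. The B-CPAP library at 37 °C was the lowest of the 4, and the one at 40 °C lay between the TPC-1 libraries, so the lines overlapped. CDKN2B rested on 92 to 171 reads, and its counting interval at 37 °C in B-CPAP ran from 2.45 to 3.73 TPM, well above 0. The coding parts of CDKN2A and CDKN2B are related, and they share 31 runs of 50 bases, 0.681% of those of CDKN2A and 0.765% of those of CDKN2B. CDKN2A had 2741 to 5224 estimated reads, far more than CDKN2B, so even a small share of them could bear on the level of CDKN2B. How reads of the shared runs were assigned was not tested.

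MTAP (ENSG00000099810, chr9:21802543-21937651, plus strand) was at 5.12 and 6.28 TPM in the TPC-1 libraries and at 9.47 and 12.7 TPM in those of B-CPAP. Both B-CPAP libraries were above both TPC-1 libraries. Its GENCODE exon length of 14617 bases counts the exons of all its annotated transcripts, and its TPM against other genes depends on that length.

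The protein-coding genes around the trio were also measured. Of 35 protein-coding genes whose 5′ end lies within 3 Mb of that of CDKN2A, 14 reached 1 TPM in a library, and 12 of those were at 1 TPM or more in all 4. The other 2 did so in 1 line: ACER2, an alkaline ceramidase, at 5.25 and 6.06 TPM in the TPC-1 libraries and 0.870 and 0.773 TPM in those of B-CPAP, and DMRTA1 at 0.533 and 0.651 TPM in the TPC-1 libraries and 1.44 and 2.10 TPM in those of B-CPAP. The 16 type I interferon genes between MTAP and HACD4 were silent or nearly so: 14 were listed at 0 in every library, and the highest value was 0.561 TPM, for IFNE in TPC-1 at 37 °C. KLHL9, which lies among the interferon genes, was at 24.6 and 24.6 TPM in the TPC-1 libraries and 15.7 and 18.2 TPM in those of B-CPAP. FOCAD was at 24.7 to 30 TPM in all 4 libraries. MLLT3, a subunit of transcription elongation complexes, was at 10.3 and 12.3 TPM in the TPC-1 libraries and at 1.04 and 1.71 TPM in those of B-CPAP. HACD4 was at 1.28 and 1.62 TPM in the TPC-1 libraries and at 4.02 and 5.98 TPM in those of B-CPAP. DENND4C was at 18.5 and 17.9 TPM in the TPC-1 libraries and at 4.67 and 8.86 TPM in those of B-CPAP. RRAGA, HAUS6, PLIN2 and the ribosomal protein gene RPS6, at the far end of the window, were at 11.8 TPM or more in every library. Some non-coding entries were singled out after their values were seen. The lincRNA ENSG00000236921, 219 kb from CDKN2A, was at 2.99 and 3.52 TPM in the TPC-1 libraries and listed at 0 in both of B-CPAP. SCARNA8 was at 1.26 and 6.61 TPM in TPC-1 and also at 0 in B-CPAP. FOCAD-AS1 went the other way, at 0 and 0.409 TPM against 1.27 and 2.37 TPM. The cause was not tested.

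**Figure D1:**
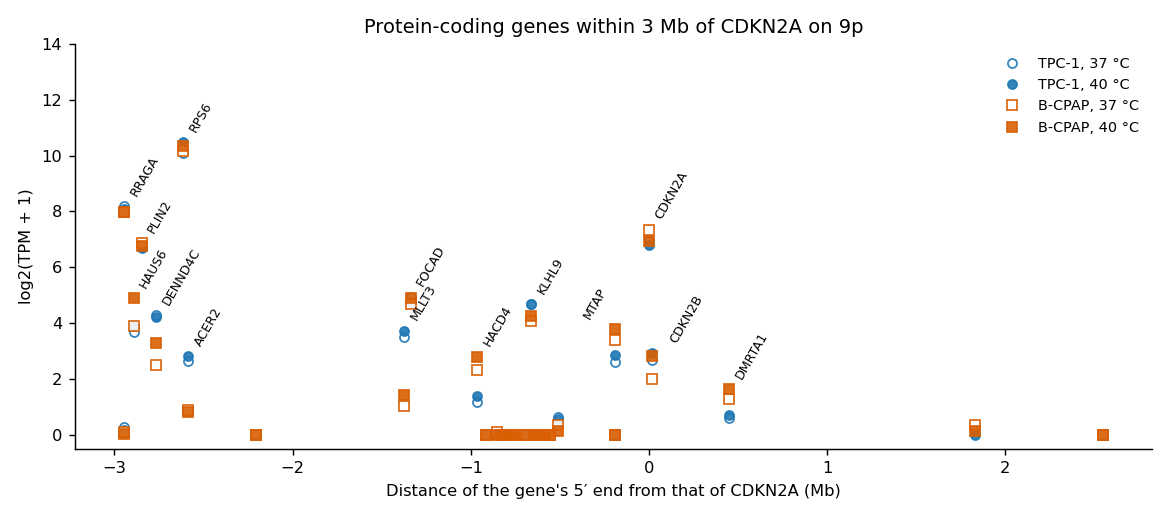
Level of protein-coding genes around CDKN2A as log2(TPM + 1) against the distance of each 5′ end from that of CDKN2A in Mb, 1 symbol for each of the 4 libraries. CDKN2A is the highest of the 9p21 trio, CDKN2B and MTAP are low but above 0 in every library, and the 16 interferon genes lie at or near 0.

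CCND1 and CDK4 were the highest of the 10 genes in all 4 libraries. In TPC-1, CCND1 was highest at 231 and 235 TPM and CDK4 second at 199.8 and 173 TPM. In B-CPAP, CDK4 led at 37 °C (389 against 340.1 TPM for CCND1) and CCND1 led at 40 °C (398 against 306 TPM). The lowest in TPC-1 were CDKN2B, MTAP and CCNE1, and at 37 °C their counting intervals overlapped: 4.54 to 6.42 TPM for CDKN2B, 4.66 to 5.62 for MTAP and 3.83 to 6.10 for CCNE1. In B-CPAP the lowest were CDKN2B and MTAP, followed at 37 °C by CDK6 (12.1 to 13.5 TPM) and RB1 (12 to 14 TPM), whose intervals overlapped. CDK6 and RB1 also overlapped in B-CPAP at 40 °C, at 24.6 to 26.8 and 24 to 27 TPM. These intervals are exact 95% Poisson intervals from estimated reads, and like every counting interval here they cover counting error only and hold no spread between cultures.

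**Figure D2:**
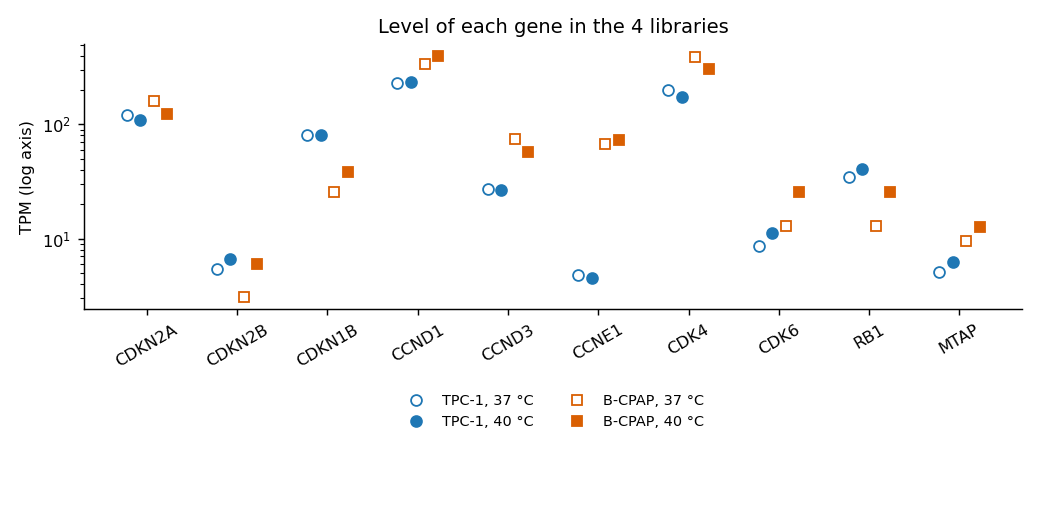
Level of each of the 10 genes in TPM on a log axis, 1 symbol for each of the 4 libraries. CCNE1 shows the widest gap between the lines (4.84 and 4.50 TPM in the TPC-1 libraries, 67.9 and 73.2 TPM in those of B-CPAP), and no gene lies at 0 in any library.

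B-CPAP was compared with TPC-1 over both temperatures. The lines differed in 9 of the 10 genes, 7 higher and 2 lower in B-CPAP. This is read against a background in which 62.7% of the 14912 genes tested were called, 29.9% higher and 32.8% lower. The test was limma on log2(TPM + 1) with temperature as a block, two-sided, with Benjamini-Hochberg adjustment over all genes tested, and a gene was called at an adjusted p under 0.05. All 10 genes are protein-coding with a mean of at least 5 TPM, and such genes were called more often. In separate fits, 72.5% of genes of mean TPM of at least 5 were called, and 72.9% of protein-coding genes. The median difference over the 10 genes was 0.74 on the log2(TPM + 1) scale, against -0.05 over all genes tested. In 9 of the 10 genes the B-CPAP and TPC-1 libraries did not overlap, as in 75.7% of all genes. A gene's own spread in this test has 1 residual degree of freedom, how far its line difference differs between the 2 temperatures, and limma moves it towards that of genes of similar level. The labels name no separate cultures beyond line and temperature, so the p-values may measure technical spread.

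Among the inhibitors, CDKN1B was lower in B-CPAP and CDKN2A slightly higher. CDKN1B (ENSG00000111276, chr12:12715058-12722371, plus strand), which encodes p27, stood at 81.4 TPM in TPC-1 at 37 °C, 81.0 TPM at 40 °C, 25.3 TPM in B-CPAP at 37 °C and 38.3 TPM at 40 °C. The TPC-1 libraries lay within their counting error of each other and both were above both B-CPAP libraries. Its log2 difference was -1.35 ± 0.16 (SE; limma adjusted p = 0.00158). CDKN2A differed by 0.29 ± 0.09 (limma adjusted p = 0.0437), a call that was lost without the filter on low values (adjusted p = 0.0951), without the intensity trend (0.147) and without the temperature term (0.217). In fits that left out 1 library, which also drop the temperature term, its difference was 0.10 without B-CPAP at 37 °C and 0.48 without B-CPAP at 40 °C, and it was not called in any of the 4. CDKN2B did not pass the test (-0.39 ± 0.20, limma adjusted p = 0.157), and its difference was 0.01 without B-CPAP at 37 °C. MTAP, the enzyme beside them, was higher in B-CPAP by 0.84 ± 0.15 (limma adjusted p = 0.0057).

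The cyclins were all higher in B-CPAP, and CCNE1 by far the most. CCNE1 (ENSG00000105173, chr19:29811898-29824308, plus strand), which encodes cyclin E1, stood at 4.84 TPM in TPC-1 at 37 °C, 4.50 TPM at 40 °C, 67.9 TPM in B-CPAP at 37 °C and 73.2 TPM at 40 °C. The TPM ratio of B-CPAP to TPC-1 was 14 at 37 °C (95% counting interval 11.0 to 17.9) and 16.3 at 40 °C (12.8 to 21.3). The log2 difference was 3.66 ± 0.12 (limma adjusted p = 5.32e-05), and CCNE1 was called in every fit that left out 1 library, with adjusted p between 0.0114 and 0.0142. CCND3 (ENSG00000112576, chr6:41934933-42050357, minus strand), a D-type cyclin, was at 27.4 and 26.4 TPM in the TPC-1 libraries and at 75.0 and 57.4 TPM in those of B-CPAP. Its difference was 1.25 ± 0.12 (limma adjusted p = 0.000812), and the lines did not overlap. CCND1 (ENSG00000110092, chr11:69641087-69654474, plus strand), which encodes cyclin D1, was at 231 and 235 TPM in the TPC-1 libraries and at 340.1 and 398 TPM in those of B-CPAP. Its difference was 0.65 ± 0.08 (limma adjusted p = 0.00172). Of its exon length, 10.3% overlaps LTO1 on the other strand, which was at 2.86 to 8.15 TPM.

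Both kinases of the D-type cyclins were higher in B-CPAP. CDK4 (ENSG00000135446, chr12:57747727-57756013, minus strand) was at 199.8 and 173 TPM in the TPC-1 libraries and at 389 and 306 TPM in those of B-CPAP, a difference of 0.89 ± 0.07 (limma adjusted p = 0.000538). Exons of TSPAN31 on the other strand cover 43.2% of the exon length of CDK4, so the reads of CDK4 are uncertain in part. TSPAN31 was listed at 14.3 to 20.4 TPM, below CDK4 in each library. The same overlap bears on the reads of TSPAN31, so its level does not settle those of CDK4. CDK6 (ENSG00000105810, chr7:92604921-92836594, minus strand) was at 8.69 and 11.1 TPM in the TPC-1 libraries and at 12.8 and 25.7 TPM in those of B-CPAP. The lines did not overlap, though B-CPAP at 37 °C was close to TPC-1 at 40 °C. Its difference was 0.82 ± 0.19 (limma adjusted p = 0.0144), and it was not called without the filter (adjusted p = 0.0531) or without the temperature term (0.110). Leaving out B-CPAP at 40 °C gave 0.35 and leaving out B-CPAP at 37 °C gave 1.30. It was not called in any fit that left out a library.

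RB1 (ENSG00000139687, chr13:48303726-48599436, plus strand), the substrate of these kinases, was lower in B-CPAP, at 34.5 and 41.1 TPM in the TPC-1 libraries and at 13 and 25.5 TPM in those of B-CPAP. All B-CPAP values lay below all TPC-1 values. Its difference was -1.01 ± 0.18 (limma adjusted p = 0.00686), and without the temperature term it was not called (adjusted p = 0.0568). Without B-CPAP at 37 °C its difference was -0.55 and it was not called, nor without either TPC-1 library. Without B-CPAP at 40 °C it was -1.47 and was called. When 1 library was left out, 1 of the 10 genes stayed called without TPC-1 at 37 °C (20.2% of all genes were called in that fit), 1 without TPC-1 at 40 °C (19.5%), 4 without B-CPAP at 37 °C (34.2%) and 6 without B-CPAP at 40 °C (38.4%).

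**Figure D3:**
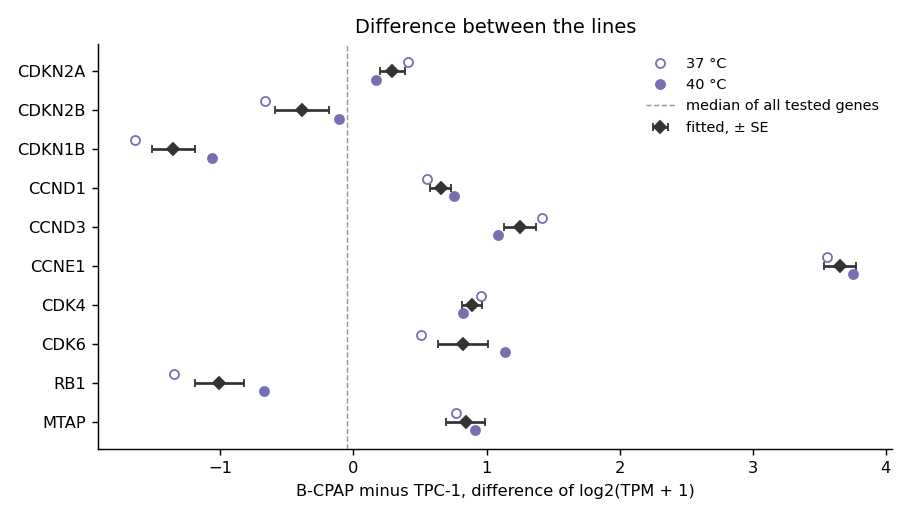
Difference of log2(TPM + 1) between B-CPAP and TPC-1 for each gene: diamonds give the fitted difference over both temperatures with its SE, circles the difference at 37 °C (open) and 40 °C (filled), and the dashed line the median of all tested genes. CCNE1 stands at 3.66, CDKN1B and RB1 lie below 0, and the CDKN2B circles lie apart at -0.66 and -0.11.

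Other genes of the pathway were read from lists chosen by role, with the same limma fit and threshold. The lists were chosen with earlier results of these data known, so their counts and medians are descriptions and not tests of a list. Their counts are read against the 62.7% of all genes called, 29.9% higher and 32.8% lower. In the fit of protein-coding genes alone, 72.9% were called, 4024 of 11824 higher and 4594 lower. Of the 4 other CDK inhibitors, 3 were lower and 1 higher in B-CPAP. CDKN1A, which encodes p21, was at 312 and 316 TPM in the TPC-1 libraries and at 13.6 and 9.28 TPM in those of B-CPAP, a log2 difference of -4.69 (limma adjusted p = 4.5e-05). The INK4 genes CDKN2C (-0.75) and CDKN2D (-0.89) were also lower, and CDKN1C, which encodes p57, was higher (1.31). With CDKN1B, 4 of the 7 CDK inhibitors measured were therefore lower in B-CPAP and 2 higher.

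Of 7 tested other G1 cyclins and kinases, 2 were higher and 1 lower in B-CPAP. CDC25A, a phosphatase that activates CDK2, was higher (13.7 and 14 TPM in the TPC-1 libraries, 40.9 and 36.9 TPM in those of B-CPAP), as was CCNH (1.18), and CCNA2 was lower (-0.59). CDK2, the partner of cyclin E, was at 59.6 to 72.3 TPM in all 4 libraries and did not pass the test (0.15, limma adjusted p = 0.274). CCNE2, the other cyclin E gene, was at 2.47 to 4.19 TPM with the lines overlapping. CCND2 was listed at 0 in 3 libraries and at 0.0199 TPM in B-CPAP at 40 °C, so CCND1 and CCND3 were the D-type cyclins detected at 1 TPM or more.

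In the list of RB relatives, E2F factors and their partners, 4 of 16 were higher and 4 lower. E2F1, an activator, was at 39.6 and 32.9 TPM in the TPC-1 libraries and at 175 and 130.1 TPM in those of B-CPAP (log2 difference 2.03, limma adjusted p = 0.000103). E2F4 was higher by 1.12 and E2F6 by 0.68, whereas E2F5 was lower (-1.13), as was the E2F partner TFDP2 (-1.01). Of 13 E2F target genes of the G1/S transition, 7 were higher in B-CPAP and none lower. They included the licensing factor CDC6 (17.1 and 20.6 TPM against 51.8 and 58.2 TPM), CDC45 (28.2 and 28.1 TPM against 72.8 and 71.8 TPM), GINS2 and PCNA. The list's median difference was 0.22, against -0.05 over all genes tested.

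On the ARF side of the locus, MDM2, the ligase that ARF restrains, was at 12.1 and 18.3 TPM in the TPC-1 libraries and at 2.95 and 4.84 TPM in those of B-CPAP (log2 difference -1.73, limma adjusted p = 0.000536). MDM4, a relative of MDM2, was also lower (-1.33). NPM1, a nucleolar protein that binds ARF, was higher (387 and 542 TPM against 683 and 980.2 TPM).

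Around MTAP, 10 of 13 genes of methionine salvage, polyamine synthesis and the PRMT5 complex were higher in B-CPAP and 1 was lower, where 29.9% of all genes were higher and 32.8% lower. The list's median difference was 0.57, against -0.05 over all genes. As the list was chosen with earlier results known, a shift of the list as a whole was not tested. PRMT5, an arginine methyltransferase that the substrate of MTAP inhibits, was at 90.5 and 78.7 TPM in the TPC-1 libraries and at 171 and 146 TPM in those of B-CPAP. Its partner WDR77 was at 32.0 and 34.6 TPM against 125 and 105 TPM, and MAT2A, which makes S-adenosylmethionine, at 52.6 and 73.9 TPM against 204 and 217 TPM. Spermidine synthase (SRM) and ornithine decarboxylase (ODC1) were higher by 1.67 and 1.59.

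The comparison of 40 °C with 37 °C asked how thermal stress altered these genes. Over both lines, with the line as a block, limma called 0 of the 10 genes and 0 of all 14912, a background of 0%. At an unadjusted p under 0.05 there were 2905 genes, 4 of the 10 among them, and the smallest adjusted p over all genes was 0.0871. Within a line, 0 of the 10 genes differed 2-fold on the log2(TPM + 1) scale in TPC-1, where 3.48% of all genes did, and 0 in B-CPAP, where 3.9% did. Within a line there is 1 library at each temperature, so a ratio below compares 2 libraries and has no replicate check. Of the 10 genes, 5 were higher at 40 °C in both lines and 3 lower in both, and 68.7% of all genes differed the same way in both. The median log2 difference of the 10 genes was 0.01 for TPC-1 and 0.31 for B-CPAP, against 0.03 and 0.09 over all genes.

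In TPC-1 the 95% counting interval of the 40 to 37 °C TPM ratio lay above 1 for 3 genes (21.5% of all genes) and below 1 for 2 (16.1% of all genes), and excluded 1 in 37.6% of all genes. In B-CPAP it lay above 1 for 6 (36.4% of all genes) and below 1 for 3 (21.8%), and excluded 1 in 58.2% of all genes. As deep genes have narrow intervals, the share among protein-coding genes of at least 5 TPM was higher, 49.5% in TPC-1 and 75.9% in B-CPAP. For 7 of the 10 genes the intervals of the 2 lines did not overlap (CDKN2A, CDKN1B, CCND1, CCND3, CDK4, CDK6 and RB1), against 22.4% of all genes and 31.9% of protein-coding genes of at least 5 TPM. Whether the lines differ in this beyond the spread between cultures was not tested.

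CDK6, CDKN2B and RB1 had the largest ratios of the 10 genes in B-CPAP. CDK6 was 1.28 times as high at 40 °C in TPC-1 (interval 1.15 to 1.42) and 2.01 times in B-CPAP (1.87 to 2.16). RB1 was 1.19 times as high in TPC-1 (1.11 to 1.28) and 1.96 times in B-CPAP (1.78 to 2.17). CDKN2B had a ratio of 1.98 in B-CPAP (1.53 to 2.58), and in TPC-1 its interval included 1 (1.21, 0.955 to 1.54). MTAP had ratios of 1.22 (1.08 to 1.39) and 1.34 (1.24 to 1.46), which overlapped.

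CDKN1B and CCND1 were higher at 40 °C in B-CPAP, while their intervals in TPC-1 included 1. For CDKN1B the ratios were 0.995 in TPC-1 (0.922 to 1.07) and 1.51 in B-CPAP (1.35 to 1.69). For CCND1 they were 1.02 (0.984 to 1.05) and 1.17 (1.14 to 1.20). CCNE1 had intervals that included 1 in both lines, with ratios of 0.931 (0.652 to 1.30) and 1.08 (0.999 to 1.17).

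CDK4, CDKN2A and CCND3 were lower at 40 °C. CDK4 had ratios of 0.866 in TPC-1 (0.826 to 0.908) and 0.787 in B-CPAP (0.763 to 0.812). CDKN2A had ratios of 0.904 (0.858 to 0.951) and 0.763 (0.731 to 0.796). CCND3 had a ratio of 0.766 in B-CPAP (0.726 to 0.808), and in TPC-1 its interval included 1 (0.963, 0.878 to 1.06).

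**Figure D4:**
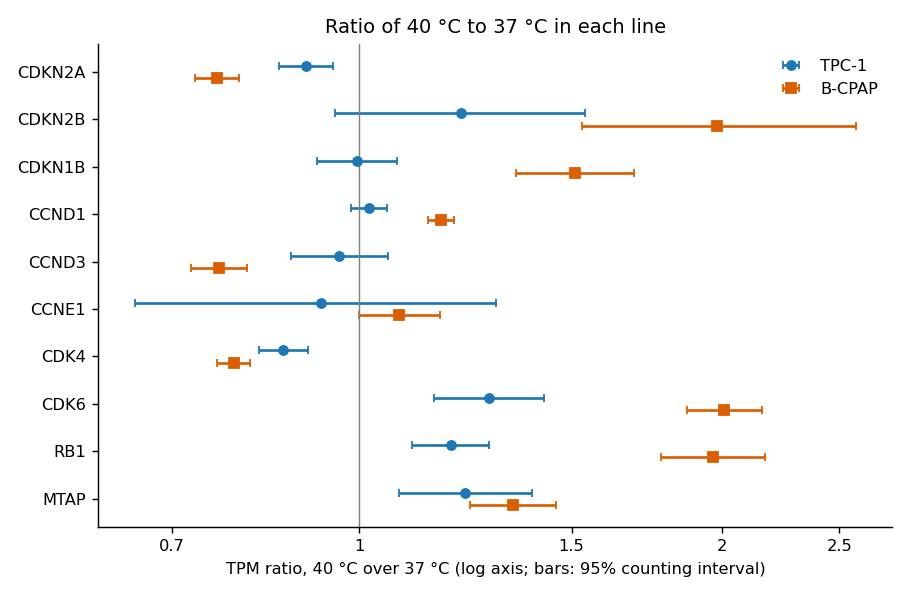
TPM ratio of 40 to 37 °C for each gene in TPC-1 and B-CPAP on a log axis, with bars for the 95% counting interval. CDK6, RB1 and CDKN2B reach 1.96 to 2.01 in B-CPAP, and CDK4, CDKN2A and CCND3 lie between 0.763 and 0.787 there.

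The differences between temperatures went with base composition across all genes. In 20 equal bins of GC content over the protein-coding genes, the median log2 difference in B-CPAP went from 0.59 in the bin of lowest GC to -0.35 in the highest, and in TPC-1 from 0.26 to -0.17. In B-CPAP the 7 genes of lowest GC, from RB1 (37.3%), MTAP (39.1%) and CDK6 (39.5%) to CCNE1 (52.9%), were higher at 40 °C, and the 3 of highest GC, CDK4 (53.6%), CCND3 (56.2%) and CDKN2A (61.4%), were lower. For MTAP the B-CPAP difference was 0.39, and genes of its bin had a median of 0.48. For RB1 it was 0.92 against 0.55, for CDK6 0.95 against 0.48, for CDKN2B 0.80 against 0.25, and for CDKN1B 0.58 against 0.14. For CCND1 it was 0.22 against 0.01, for CCNE1 0.11 against -0.05, for CDK4 -0.34 against -0.10, for CCND3 -0.38 against -0.16 and for CDKN2A -0.39 against -0.28. After adjustment of each library for GC content, the B-CPAP differences were 0.50 for CDK6, 0.54 for CDKN2B, 0.44 for CDKN1B, 0.40 for RB1, -0.29 for CDK4, -0.25 for CCND3 and -0.15 for CDKN2A. MTAP was at -0.08 in B-CPAP, the other way from its unadjusted value. In TPC-1 the adjusted differences ran from -0.20 for CDK4 to 0.13 for CDK6.

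The count of calls between temperatures depended on which genes were tested. With the filter raised to a mean of 5 TPM (10112 genes), limma called 867 (8.57%) and 3 of the 10 genes: CDK4 lower (adjusted p = 0.0468), and CDK6 (0.0453) and RB1 (0.0411) higher. Among the 11824 protein-coding genes it called 1350 (11.4%), and CDK4 (adjusted p = 0.0322), CDK6 (0.0249) and RB1 (0.020) among the 10. With the same genes and the GC adjustment, chosen after seeing the data, 0 of the 10 were called in either set, and 2 and 4 of all genes. Over both lines the adjusted log2 difference was -0.22 for CDK4 in both sets (-0.28 unadjusted), 0.29 and 0.31 for CDK6 (0.64 unadjusted) and 0.17 and 0.19 for RB1 (0.58 unadjusted). Centring each library on its median, which shifts the B-CPAP difference of all genes by -0.18, turned the direction of CCND1 in TPC-1 (-0.07) and of CCNE1 in B-CPAP (-0.08).

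**Figure D5:**
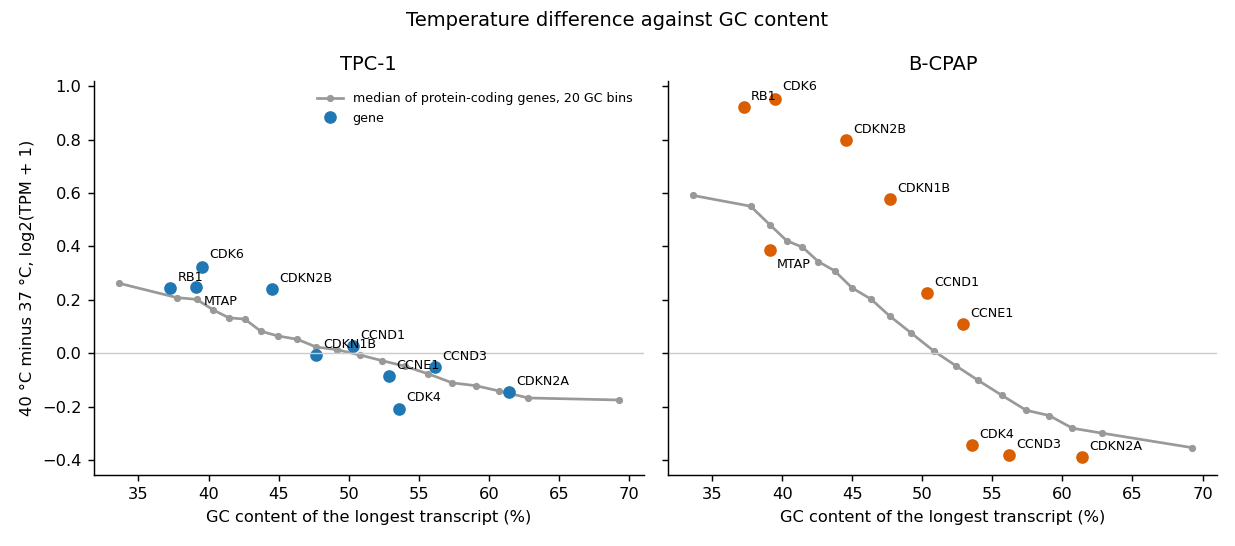
Difference of log2(TPM + 1) between 40 and 37 °C against the GC content of the longest transcript in percent, for TPC-1 and B-CPAP: coloured points are the 10 genes and the grey line joins the medians of protein-coding genes in 20 bins. The line goes from 0.59 to -0.35 in B-CPAP and from 0.26 to -0.17 in TPC-1, and in B-CPAP CDK6, RB1, CDKN2B, CDKN1B, CCND1 and CCNE1 lie above the median of their bin and the other 4 genes below it.

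None of the other pathway genes was called between temperatures in the fit of all 14912 genes, which called 0. Their calls in the narrower sets above are not reported here. Of all genes tested, 68.7% differed the same way in both lines. The E2F targets PCNA and CDT1 differed in opposite directions. PCNA, of 45.3% GC, was at 231 and 304 TPM in the TPC-1 libraries and at 400.3 and 492 TPM in those of B-CPAP. CDT1, of 64.9% GC, was at 87.8 and 74.4 TPM and at 109.6 and 80.6 TPM. MDM4, of 42.4% GC, was at 10 and 14.2 TPM and at 2.85 and 5.83 TPM. Of the 4 other CDK inhibitors, 3 were lower at 40 °C in both lines, with CDKN2D, of 61.3% GC, at 42.1 and 33.9 TPM in the TPC-1 libraries and 22.5 and 17.6 TPM in those of B-CPAP. Of the 7 other G1 cyclins and kinases, 5 were higher in both lines, among them MNAT1, an assembly factor of the CDK-activating kinase, of 36.7% GC, at 8.02 and 10.8 TPM and at 8.78 and 12.9 TPM.

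For CDKN2A and CCND1 the genes of most similar pattern were found by Euclidean distance of log2(TPM + 1) over the 4 libraries among 11823 protein-coding genes. Nearest to CDKN2A were PLEKHM2 (distance 0.0721; 126, 108, 159 and 126 TPM in TPC-1 at 37 and 40 °C and B-CPAP at 37 and 40 °C), VPS25 (0.0899) and POLR2E (0.109). Nearest to CCND1 were SSR3 (0.128; 235, 246, 353 and 424 TPM), NDUFA8 (0.203) and SNRPC (0.271). With 4 libraries the measure orders genes by level as much as by pattern.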

How the data were processed

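The members and the gene lists were chosen with earlier results of these data known. RNA of TPC-1 and B-CPAP at 37 and 40 °C was sequenced, 1 library for each line and temperature. RNeasy Plus kits gave the RNA and the TruSeq RNA kit v2, which keeps no strand, the libraries, per the labels' protocols. Per the submitters' processing notes, the tools were FastQC, MultiQC, Trimmomatic 0.38 and featureCounts 2.0.0 on GRCh38; which aligner and annotation release were used is not given in the sources used here. Values are TPM as deposited by the authors, for 58884 Ensembl IDs, of which 58611 were found in GENCODE 29, the source of coordinates, exon lengths and GC content.

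TPM keeps no depth. TPM times exon length gave whole reads, within 0.02 of a read, for 90.6 to 92.1% of values up to 20 reads and 65.7 to 67.6% of those from 20 to 200, so reads are estimates. They were whole in all 4 libraries for CDKN2A, CCND3, CDK6 and RB1 and approximate for the other 6 genes. They gave exact 95% intervals of levels (Poisson) and of ratios (Clopper-Pearson), which cover counting error only. Genes of mean TPM of at least 1 (14912) were fitted as log2(TPM + 1) with limma 3.58.1 (R 4.3.3), an intensity trend and 1 residual degree of freedom, and called at an adjusted p of 0.05; fold changes on this scale understate those of low genes. The fits were tested on simulated data. GC adjustment subtracted a loess curve for each library. Named genes were every member, the 9p protein-coding genes within 3 Mb that reached 1 TPM, and CDKN2B-AS1. From each list, up to 5 genes were named by line difference and 2 by temperature difference. The 3 nearest to CDKN2A and CCND1 were named as well. Other genes are named as overlaps, markers, or genes of the lists and of 9p singled out after their values were seen. The last kind were CDK2, CCNE2, CCND2, IFNE, FOCAD-AS1, SCARNA8 and the lincRNA ENSG00000236921. Motifs were searched on both strands. Alternatives were other pseudocounts, filters, scalings, GC adjustment, limma settings, fits with no block, and fits on 3 of the 4 libraries. Some genes of the lists are not reported here.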

Additional observations from a re-analysis of the deposited data

How the results depend on the processing

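No paired analysis was possible because each group held 1 library, so no replicate number pairs samples beyond the line and temperature terms already fitted. The count of the 10 genes called between lines was 9 under both other pseudocounts, a mean TPM of at least 5, the protein-coding genes, every scaling and the GC adjustment, 7 without a filter (8383 of 29613 genes in all), 8 without the intensity trend (8538 of 14912) and 6 without the temperature term (7469 of 14912). Leaving out 1 library gave 1 to 6 of the 10 genes and 2911 to 5719 of all genes; these fits also lack the temperature term and take the lone library to vary like the others. Of all genes, calls between temperatures were 0 as reported, 2 with a pseudocount of 5, 49 after centring on the median, 867 at a mean TPM of at least 5 and 1350 among protein-coding genes, and 2 and 4 once the last 2 sets were adjusted for GC content. Of the 10 genes, 3 were called at a mean TPM of at least 5, and 3 among protein-coding genes. Fits of temperature that leave out 1 library mix it with the line and called 0 genes.

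Counts of all genes 2-fold apart between temperatures were, for TPC-1 and then B-CPAP, 519 and 582 as reported, 987 and 1246 with a pseudocount of 0.1, 89 and 82 with 5, 1291 and 1143 without a filter, 63 and 175 at a mean TPM of at least 5, and 18 and 137 among protein-coding genes. Between lines they were 5343 at 37 °C and 5111 at 40 °C as reported, 2811 and 2725 with a pseudocount of 5, and 3279 and 3014 at a mean TPM of at least 5. Of the 2-fold genes in B-CPAP, the share higher at 40 °C was 71.1% as deposited, 51.3% centred, 53.6% after quantile normalization, 53.3% with GC adjustment, 81.7% at a mean TPM of at least 5 and 97.8% among protein-coding genes. Other turns of direction between temperatures with all 4 libraries were CCND1 (-0.01) and CCNE1 (-0.13) over both lines after centring, CCNE1 over both lines with quantile normalization (-0.04), CCND1 in TPC-1 (-0.01) and MTAP over both lines (-0.01, and -0.04 and -0.03 in the 2 narrower sets) with GC adjustment, CDKN1B in TPC-1 with quantile normalization (0.03) or without mitochondrial genes (0.05), and CCND3 in TPC-1 without mitochondrial genes (0.00063). The cause was not tested. CDKN2B, at 92 to 171 reads, and CCNE1 in TPC-1, at 66 and 75, have the least depth.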

Other observations

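Of 14 genes that act on the INK4/ARF locus, 5 were higher and 4 lower in B-CPAP (limma, adjusted p under 0.05), near the 62.7% of all genes called, with a median log2 difference of 0.03 against -0.05 over all genes tested. ID1, a repressor of CDKN2A transcription, was at 338 and 349 TPM in the TPC-1 libraries and at 1611 and 1401 TPM in those of B-CPAP. TBX2, another repressor, was at 1.25 and 1.14 TPM against 8.02 and 6.20 TPM. The Polycomb gene CBX7 was at 8.33 and 7.63 TPM in the TPC-1 libraries and at 2.94 and 2.64 TPM in those of B-CPAP, and the demethylase gene KDM6B, which removes the Polycomb mark, at 30.8 and 28.0 TPM against 9.62 and 9.24 TPM. RING1 was higher in B-CPAP by 0.94 on the log2 scale. Between temperatures, SUZ12, of 38.0% GC, was at 11.0 and 16.9 TPM in the TPC-1 libraries and at 12.9 and 25.2 TPM in those of B-CPAP, and BMI1, of 39.1% GC, at 6.88 and 8.59 TPM and at 10 and 16.7 TPM.

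Of 9 genes of the ubiquitin ligases that act on G1 regulators, 3 were higher and 2 lower in B-CPAP, again near the 62.7% of all genes called. SKP2, the F-box protein that targets p27, was at 25.2 and 29.8 TPM in the TPC-1 libraries and at 34.3 and 41.8 TPM in those of B-CPAP (log2 difference 0.45, limma adjusted p = 0.0138). The scaffold CUL1 was at 54.6 and 55.6 TPM against 115 and 135 TPM, and RBX1 was higher by 0.44. FBXO4 (-0.79) and AMBRA1 (-0.38), of the ligases of D-type cyclins, were lower. FBXW7, the F-box protein that targets cyclin E, was at 1.69 to 3.31 TPM with the lines overlapping.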
